A study of Rattus norvegicus with 6 samples.

Results

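RNA-seq of the rat amygdala was examined for 10 genes that encode hypothalamic neuropeptides or the receptors of oxytocin and vasopressin: *Oxt*, *Avp*, *Oxtr*, *Avpr1a*, *Avpr1b*, *Hcrt*, *Pmch*, *Trh*, *Gal* and *Ghrh*. They were taken by symbol from the 38445 genes of the count files, and each matched 1 NCBI gene identifier. The question was what the level of these genes was in each library and whether it differed between rats that received saline (control) and rats that received ethanol at 1 g/kg. Both groups were adult male Sprague Dawley/WT rats that were injected intraperitoneally and killed after 1 h, when the amygdala (central, medial and basolateral nuclei) was dissected. RNA of 2 rats was pooled for each library, so that the 6 rats of each group gave 3 libraries and the rats within a library cannot be seen singly. The libraries held between 62576504 and 70755739 reads assigned to genes. Markers of amygdala neurons were present, with 9 of 9 detected and a summed counts-per-million (CPM) level between 979 and 1429 (with library sizes corrected by TMM factors). Thalamic (6 of 6) and striatal (5 of 5) markers were all detected too, so detection alone does not identify the tissue.

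The peptides of this set are made in cell bodies that sit mostly outside the amygdala. *Oxt* and *Avp* encode oxytocin and vasopressin, the closely related peptide hormones of the magnocellular neurons of the paraventricular and supraoptic nuclei, and vasopressin is also made by neurons of the medial amygdala in male rodents. *Hcrt* encodes the orexins (hypocretins), which sustain wakefulness, and *Pmch* encodes melanin-concentrating hormone, which acts on feeding and sleep, and both mark separate neurons of the lateral hypothalamus. *Trh* and *Ghrh* encode the releasing hormones for thyrotropin and growth hormone, and *Gal* encodes galanin, and *Trh* and *Gal* are also transcribed in parts of the amygdala. The receptors, in contrast, are made by the neurons that respond: *Oxtr* and *Avpr1a* are known from the central and medial amygdala, where oxytocin and vasopressin act on fear and social behavior, and *Avpr1b* is best known from the pituitary and the hippocampus.

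*Oxt* and *Avp* are neighbours on chromosome 3 of Rnor_6.0. *Oxt* lies on the + strand from 123106694 to 123107534 and *Avp* on the - strand from 123117482 to 123119460, so that they point towards each other with 9947 bases between them. Each has 3 exons, the middle one being 202 bases long in both. *Pmch* lies on chromosome 7 from 28655206 to 28656522 and *Hcrt* on chromosome 10 from 88669216 to 88670430. The exons of 9 of the 10 genes shared no base with another gene, while all 745 exonic bases of *Pmch* lay opposite exons of *Parpbp* on the other strand. The counting used strand, and *Parpbp* had only 8 to 45 reads per library. The promoters of *Oxt*, *Avp* and *Hcrt* are shown because these genes varied widely between libraries. They are the 250 bases before the RefSeq start in GRCr8, at chr3:138235504-138235753 on the + strand, chr3:138248523-138248772 on the - strand and chr10:86191525-86191774 on the - strand. Capitals mark the TATA-box form CATAAA or the form TATAAA, the E-box CACGTG, the nuclear receptor core GGTCA and the cAMP response core TGACG, each sought on either strand, and these matches do not overlap one another in these windows.

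Oxt: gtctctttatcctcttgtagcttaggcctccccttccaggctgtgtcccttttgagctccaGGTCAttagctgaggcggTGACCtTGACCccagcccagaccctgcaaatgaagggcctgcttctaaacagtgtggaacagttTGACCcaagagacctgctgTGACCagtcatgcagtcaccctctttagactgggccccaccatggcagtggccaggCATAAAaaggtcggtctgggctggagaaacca
Avp: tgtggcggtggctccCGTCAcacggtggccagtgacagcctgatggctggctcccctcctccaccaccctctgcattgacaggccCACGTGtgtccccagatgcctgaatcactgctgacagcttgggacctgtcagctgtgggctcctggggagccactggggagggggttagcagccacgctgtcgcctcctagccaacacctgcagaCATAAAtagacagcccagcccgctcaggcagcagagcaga
Hcrt: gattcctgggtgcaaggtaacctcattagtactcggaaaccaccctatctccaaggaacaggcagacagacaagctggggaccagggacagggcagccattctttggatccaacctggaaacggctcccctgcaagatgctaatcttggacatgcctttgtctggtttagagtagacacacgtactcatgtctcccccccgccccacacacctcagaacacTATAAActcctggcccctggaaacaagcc

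*Oxt* and *Avp* both carry CATAAA, at 32 and 40 bases before the start, and *Hcrt* carries TATAAA at 29 bases. CATAAA was in 11.4% and TATAAA in 12.9% of the 33469 windows of this length. The *Oxt* window holds GGTCA 5 times, and 35.4% of all windows hold it at least 1 time, while those of *Avp* and *Hcrt* have no match. The *Avp* window holds the E-box CACGTG, found in 5.59% of windows, at 165 bases before the start, and TGACG, found in 18.2%, at 235 bases. Of the 10 genes, 9 had a promoter in the table.

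*Oxt* and *Avp* differed more between libraries of the same group than between the groups. In controls, *Oxt* had 2561, 92 and 1236 counts in replicates 1, 2 and 3, which are 39.2, 1.3 and 19.5 CPM. In the ethanol group it had 387, 188 and 1937 counts, or 6.03, 2.92 and 27.8 CPM. The lowest and the highest library were thus both controls, 30.2-fold apart, and the groups overlapped. *Avp* was at 60.3, 2.84 and 45.6 CPM in controls and at 12.5, 5.44 and 69.1 CPM after ethanol, a 24.3-fold range. Its libraries fell in the same order as those of *Oxt*, except that ethanol 3 and control 1 changed places at the top. The mean level of *Oxt* was 20 ± 18.9 CPM in controls and 12.3 ± 13.6 CPM after ethanol (SD, n = 3 libraries each), a log2 fold change of -0.70 (95% interval -3.18 to 1.78, adjusted p = 1.0, edgeR quasi-likelihood F test with the Benjamini-Hochberg correction for 18141 genes). For *Avp* the means were 36.2 ± 29.8 and 29.0 ± 34.9 CPM (SD, n = 3 each) and the log2 fold change was -0.32 (95% interval -2.84 to 2.21, adjusted p = 1.0, edgeR F test). These intervals hold large changes in either direction.

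The ratio of the hormones was steadier than either level. Per kilobase of exon, *Avp* was 1.41, 2.00 and 2.14 times the level of *Oxt* in control 1, 2 and 3, and 1.89, 1.70 and 2.27 times in ethanol 1, 2 and 3. *Avp* was the higher of the pair in 6 of 6 libraries, and the ratio changed by only 1.61-fold while *Avp* spanned 24.3-fold and *Oxt* 30.2-fold. The ranges of the ratio in the groups overlapped. In these bulk libraries, fewer cells of a type and less RNA per cell cannot be told apart.

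**Figure D1:**
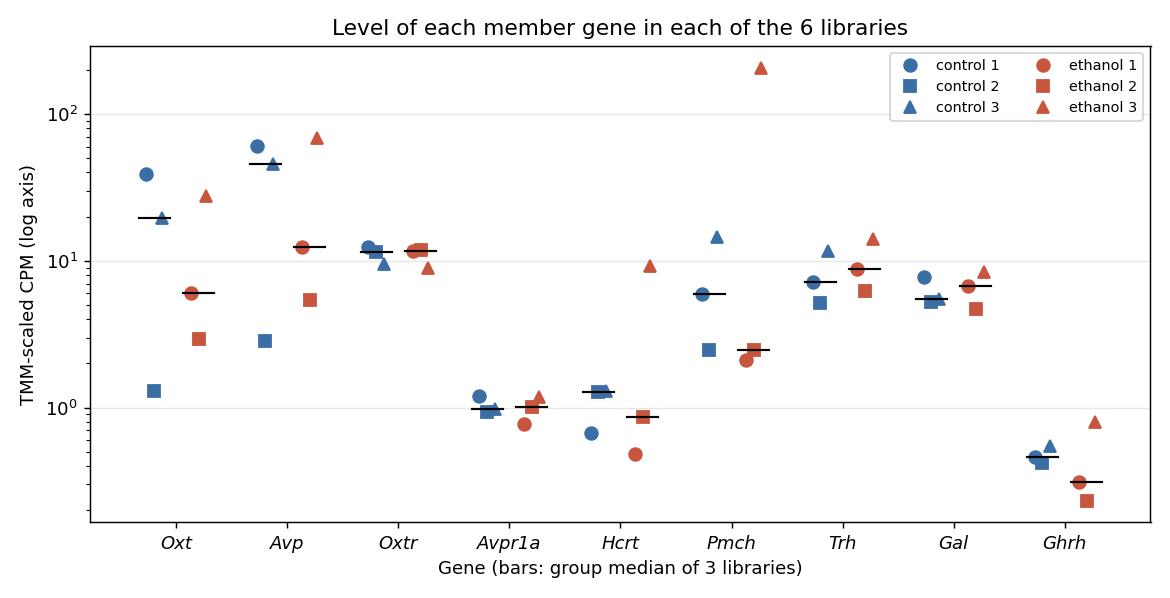
Level of the 9 detected genes as TMM-scaled CPM on a log axis, where each point is 1 library of 2 pooled rats (circle, replicate 1; square, replicate 2; triangle, replicate 3; blue, control; red, ethanol) and the bars are group medians. *Pmch* in ethanol 3 stands alone at 207 CPM, and *Oxt* and *Avp* are lowest in control 2.

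The receptors of these hormones were among the steadiest genes of the set. *Oxtr* (chromosome 4 from 144399326 to 144417598) had 820, 819 and 605 counts in controls and 749, 758 and 620 after ethanol, or 12.5, 11.5 and 9.54 CPM and 11.7, 11.8 and 8.91 CPM. Its groups overlapped and all 6 libraries lay within a 1.41-fold range, with ethanol 3 the lowest. The log2 fold change was -0.06 (standard error 0.14, 95% interval -0.39 to 0.28, adjusted p = 1.0, edgeR F test, Benjamini-Hochberg correction). *Avpr1a* (chromosome 7 from 67341366 to 67345290) was rarer, with 79, 66 and 62 counts in controls and 50, 65 and 82 after ethanol. These are 0.779 to 1.21 CPM, with control 1 the highest, ethanol 1 the lowest and the groups again overlapping, and the log2 fold change was -0.06 (95% interval -0.55 to 0.42, adjusted p = 1.0, edgeR F test). Per kilobase of exon, *Oxtr* exceeded *Avpr1a* by 1.79 to 3.55 times, in every library. *Oxtr* was at 11.5 CPM in control 2, where *Oxt* was lowest, and at 12.5 CPM in control 1, where *Oxt* was highest.

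*Avpr1b* (gene 100909648, chromosome 13 from 48390434 to 48400583) had 0 counts in each of the 6 libraries, which allows up to 0.0424 to 0.0479 CPM by library, a floor of 3 counts that covers counting error only. It was below the filter and was not tested. Reads that align to several places had not been counted, and an entry without a symbol 11603 bases away on the other strand had 0 to 6 counts. *Pcsk1n*, which encodes an abundant neuronal secretory protein, also had 1 count in all, so an identifier at 0 was not read as absence of the transcript. The symbol was matched through a later annotation than that of the counts, and it was not tested whether the entry without a symbol held the reads of *Avpr1b*, so the 0 counts are those of this identifier and may not be the level of the gene.

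The lateral hypothalamic peptides set 1 library apart. *Pmch* had 391, 177 and 920 counts in controls (5.98, 2.49 and 14.5 CPM). After ethanol it had 136, 159 and 14377 counts (2.12, 2.47 and 207 CPM). Ethanol 3 was 14.2-fold above the next library, control 3, and 82.9-fold above the median of the other 5. Ethanol 1 and 2 lay below all 3 controls, although ethanol 2 was nearly level with control 2 (2.47 against 2.49 CPM). *Hcrt* had 44, 90 and 82 counts in controls (0.673, 1.27 and 1.29 CPM) and 31, 56 and 642 after ethanol (0.483, 0.87 and 9.22 CPM). Again ethanol 3 was the highest, 7.13-fold above the next library, and the remaining 5 libraries overlapped between the groups.

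For *Pmch* the means were 7.66 ± 6.18 CPM in controls and 70.4 ± 118 CPM after ethanol (SD, n = 3 each), and for *Hcrt* 1.08 ± 0.351 and 3.53 ± 4.94 CPM (SD, n = 3 each). The log2 fold changes were 3.21 for *Pmch* (standard error 1.63, 95% interval -0.57 to 6.98) and 1.72 for *Hcrt* (standard error 1.00, 95% interval -0.59 to 4.03), and the adjusted p of each was 1.0 (edgeR F test, Benjamini-Hochberg correction). A 2-sided exact permutation test on log2 CPM gave p = 1.0 for *Pmch* and p = 0.9 for *Hcrt*, where 3 libraries against 3 cannot give less than 0.1. Without ethanol 3 both log2 fold changes turned negative, to -1.73 for *Pmch* and -0.67 for *Hcrt* (adjusted p = 0.547 and 0.636, edgeR F test). DESeq2 gave no p for *Pmch*, whose counts it set aside as extreme. Per kilobase, *Pmch* was 1.47 to 16.7 times as high as *Hcrt*, highest in ethanol 3, so that this pair did not keep the near-constant ratio of *Avp* to *Oxt*. *Pmch* was also 2.35 times as high as *Avp* in ethanol 3 but 0.0779 times in control 1, where *Oxt* was highest.

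*Trh*, *Gal* and *Ghrh* varied less. *Trh* (chromosome 4 from 124110716 to 124113242) was at 7.17, 5.18 and 11.7 CPM in controls and 8.73, 6.19 and 14.1 CPM after ethanol. *Gal* (chromosome 1 from 218653059 to 218657922) was at 7.76, 5.27 and 5.52 CPM in controls and 6.75, 4.68 and 8.36 CPM after ethanol. Both were highest in ethanol 3, by 1.21-fold and 1.08-fold over the next library, and their groups overlapped. *Ghrh* (chromosome 3 from 153449124 to 153468794) was scarce, with 30, 30 and 35 counts in controls and 20, 15 and 56 after ethanol, so that ethanol 3 was the highest and the other ethanol libraries were the lowest. The log2 fold changes were 0.28 for *Trh* (95% interval -0.55 to 1.10), 0.10 for *Gal* (95% interval -0.44 to 0.63) and -0.06 for *Ghrh* (95% interval -1.08 to 0.96), and the adjusted p of each was 1.0 (edgeR F test, Benjamini-Hochberg correction).

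Of the 10 genes, 9 passed edgeR's filter on low counts and 0 of the 9 had an adjusted p below 0.2, and the share among all tested genes was also 0%. By unadjusted p (below 0.05) the count was again 0 of 9, where 763 of 18141 genes (4.21%; 1.59% higher and 2.61% lower after ethanol) passed in edgeR's quasi-likelihood F test. None of the 9 had groups that did not overlap, which 8.85% of tested genes had (3.65% higher and 5.19% lower after ethanol). The median log2 fold change was -0.06 over the 9 genes and 0.007 over all tested genes. With edgeR's likelihood ratio test, DESeq2 and limma-voom, 77, 75 and 0 genes had an adjusted p below 0.2, of which 0 belonged to this set, and the likelihood ratio test gave *Pmch* an unadjusted p of 0.0288 (adjusted p = 1.0).

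**Figure D2:**
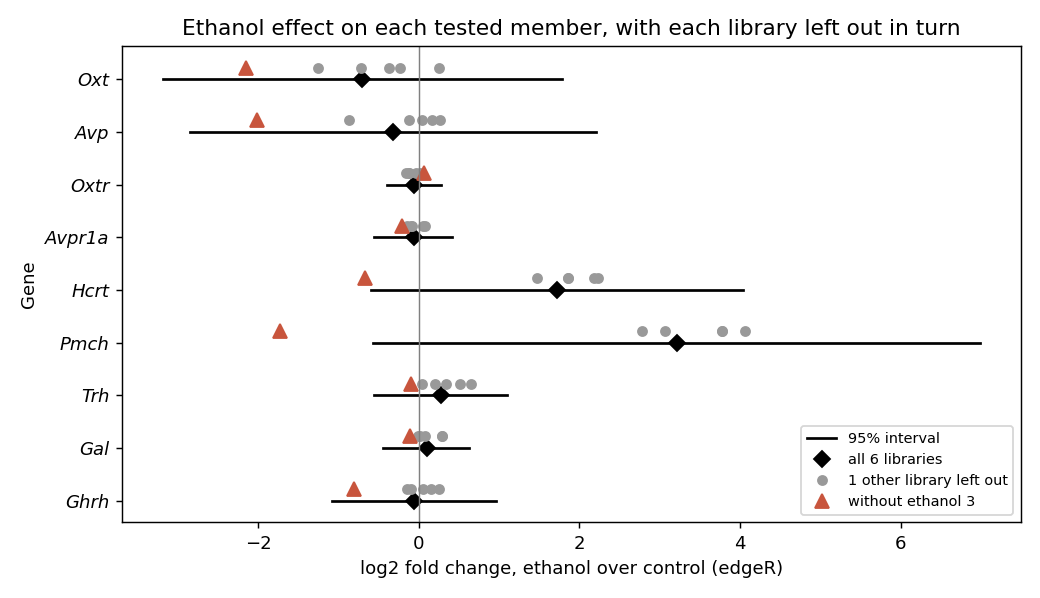
Log2 fold change of ethanol over control for the 9 tested genes (black diamonds, with 95% intervals from edgeR) and the same with 1 library left out (grey circles; red triangles, without ethanol 3). Every interval with all 6 libraries includes 0, and *Pmch* moves from 3.21 to -1.73 without ethanol 3.

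Most of the peptides had a large spread between libraries of the same group, and the receptors and *Gal* did not. The pooled within-group SD of log2 CPM had a median of 0.14 over all tested genes, and its 95th percentile was 0.52. It was 2.79 for *Pmch*, 2.17 for *Oxt*, 2.16 for *Avp* and 1.61 for *Hcrt*, and only 2, 6, 7 and 34 of the 18141 tested genes had a larger one. *Ghrh* (0.63) and *Trh* (0.59) also lay above the 95th percentile, so that 6 of the 9 did. *Gal* was at 0.37, *Avpr1a* at 0.25 and *Oxtr* at 0.22, where 2261, 4470 and 5409 genes had a larger spread. The tested peptides of this set varied more than its tested receptors *Oxtr* and *Avpr1a*.

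**Figure D3:**
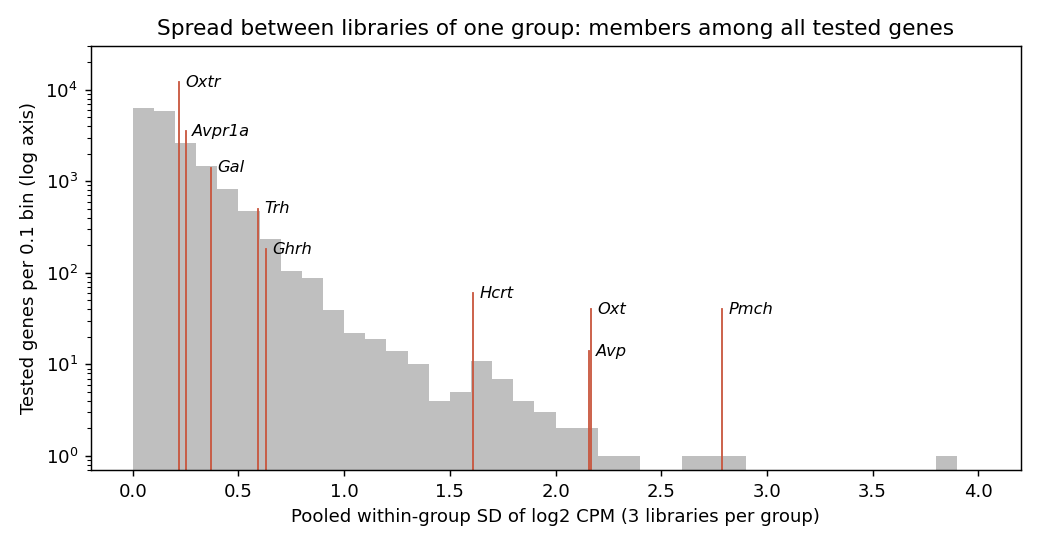
Pooled within-group SD of log2 CPM for the 18141 tested genes, in bins of 0.1, with the number of genes on a log axis and red lines of no meaningful height for the 9 tested peptide and receptor genes. *Hcrt*, *Avp*, *Oxt* and *Pmch* lie between 1.61 and 2.79, beyond nearly all other genes.

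Levels of different genes were compared as CPM per kilobase of exon. By the median over the 6 libraries, the order was *Avp* (49.7), *Oxt* (23.9), *Gal* (8.78), *Pmch* (5.69), *Trh* (4.08), *Hcrt* (1.92), *Oxtr* (1.72), *Ghrh* (0.643) and *Avpr1a* (0.623), with the *Avpr1b* identifier listed at 0 and given no place in the order. Of the neighbours in this order, only *Oxtr* and *Ghrh* had ranges that did not overlap. The gene at the top changed with the library: it was *Avp* in control 1, control 3, ethanol 1 and ethanol 2, *Gal* (7.53) in control 2 and *Pmch* (277) in ethanol 3. The receptors stayed in the lower part, with *Oxtr* at rank 6 or 7 and *Avpr1a* at rank 8 or 9 in every library.

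The highest and the lowest libraries recurred across genes, which is given as a description. Ethanol 3 was the highest library for 6 of the 9 tested genes (*Avp*, *Hcrt*, *Pmch*, *Trh*, *Gal* and *Ghrh*), while it was the highest for 22.7% of all tested genes. Control 1 was the highest for the other 3 (*Oxt*, *Oxtr* and *Avpr1a*), against 14.7% of all tested genes. Control 2 was the lowest for *Oxt*, *Avp* and *Trh*, ethanol 1 for *Avpr1a*, *Hcrt* and *Pmch*, ethanol 2 for *Gal* and *Ghrh*, and ethanol 3 for *Oxtr*. Of all tested genes, 19.5% were lowest in control 2, 13.5% in ethanol 1, 18.3% in ethanol 2 and 20.9% in ethanol 3.

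Genes whose pattern over the 6 libraries was most like those of the most variable peptides were sought among genes with a mean of at least 1 CPM, by Pearson's r of log2 CPM as a description. They were *Pfdn1*, *Gimap5* and *Ngrn* for *Oxt* (r = 1.00 each), *Arhgap11a*, *Fkbp11* and *Atg4a* for *Avp* (r = 1.00 each), *Tmem150a*, *Rpl10a* and *RGD1596092* for *Hcrt* (r = 0.99 each) and *Slc25a39*, *Cst3* and *Nfic* for *Pmch* (r = 0.99 each). All of them spanned far smaller ranges, such as 74.6 to 100 CPM for *Pfdn1* and 1357 to 1807 CPM for *Cst3*. The 6 points share the depth and tissue makeup of the libraries, and r takes no account of the size of a change. The genes named are the 3 with the highest r for each peptide. With so many genes searched over 6 points, values near 1 can come from the search alone. For *Hcrt* and *Pmch*, r also rests largely on ethanol 3.

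Several markers of hypothalamic neurons were also highest in ethanol 3. Of 14 transcription factor genes that pattern the hypothalamus, all detected, 10 had their highest level in ethanol 3. Among the 6 that were tested it was 4, where 22.7% of all tested genes were highest in ethanol 3. No such share was taken for genes too scarce to be tested. For *Nkx2-1* and *Nr5a1* the lead over the next library was only 1.03-fold and 1.21-fold, and *Lhx9*, *Foxb1*, *Rax* and *Sim2* were highest in other libraries. *Sim1*, which is needed for the oxytocin and vasopressin neurons and is also found in the medial amygdala, had 227, 119 and 194 counts in controls and 189, 85 and 890 after ethanol. *Hmx2*, *Hmx3*, *Bsx*, *Six6* and *Nkx2-4*, which were too scarce to be tested, had 15, 35, 19, 22 and 37 counts in ethanol 3 against 3, 6, 6, 12 and 18 in the other 5 libraries together. The 8 untested factors summed to 19, 17 and 43 counts in controls and 19, 20 and 159 after ethanol, and 15 of the 43 counts in control 3 were of *Sim2*. Summed over all 14 factors, ethanol 3 was highest (53.2 CPM), followed by control 2 (38.9 CPM) and control 3 (36.2 CPM). *Lhx9* and *Fezf1*, which had the most counts besides *Sim1*, ranged from 14.3 to 25.6 CPM and from 3.12 to 6.36 CPM. Of the 6 factors tested, 0 had an unadjusted p below 0.05 in edgeR's F test and the median log2 fold change was 0.01. The part of tissue composition in the peptide levels was not tested.

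**Figure D4:**
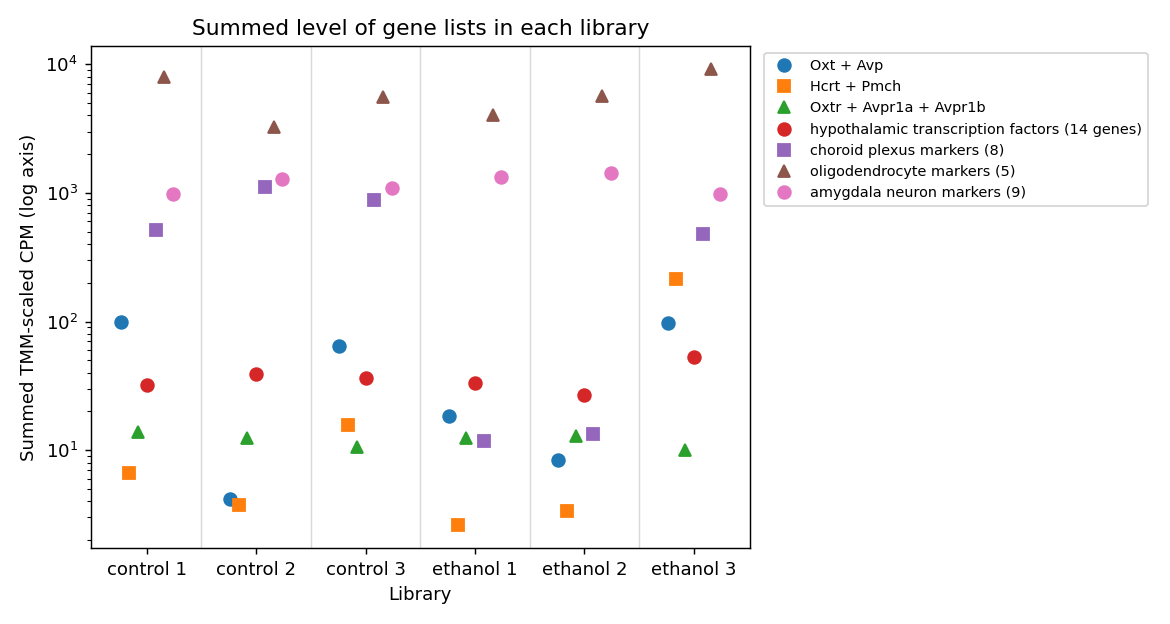
Summed TMM-scaled CPM of gene lists in each library, on a log axis, with 1 point per list and library. *Hcrt* and *Pmch* together reach 216 CPM in ethanol 3, *Oxt* and *Avp* together range from 4.14 CPM in control 2 to 99.5 CPM in control 1, and choroid plexus markers are at 11.7 and 13.3 CPM in ethanol 1 and 2.

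Marker lists of other tissue were uneven as well. The 5 oligodendrocyte markers summed to 7939, 3279 and 5532 CPM in controls and 4064, 5651 and 9225 CPM after ethanol, so that control 1 and ethanol 3, the libraries richest in *Oxt* and *Avp*, were also the richest here and control 2 the poorest. The order differed in between, since ethanol 2 was above control 3 here but below it in *Oxt* (2.92 against 19.5 CPM). The summed level of the 9 amygdala neuron markers was lowest in ethanol 3 (979 CPM) and control 1 (984 CPM), but this sum rested mainly on *Slc17a7*, the vesicular glutamate transporter of cortical-type neurons, which was at 425 and 413 CPM there against 554 to 879 CPM elsewhere. *Neurod6* was also lowest in ethanol 3 and control 1, at 11 and 23.9 CPM against 32.7 to 55.7 CPM elsewhere. So was *Rspo2*, at 7.37 and 11.6 CPM against 19.6 to 29 CPM. Some other members of the list differed: *Ppp1r1b* was highest in ethanol 3 (142 CPM against 73.4 to 93 CPM). *Foxp2* was at 24.2 CPM in control 1 and 24.5 CPM in ethanol 3 against 12.8 CPM in control 2. It was highest in ethanol 1 (25.2 CPM), where *Oxt* was at only 6.03 CPM. *Prkcd* stayed between 20.7 and 24.5 CPM, and *Lypd1* ranged from 134 CPM in ethanol 3 to 187 CPM in ethanol 1. *Penk*, the enkephalin precursor, was at 224 CPM in control 1, 193 CPM in ethanol 3 and 144 CPM in control 2, and was also highest in ethanol 1 (257 CPM). *Tbr1*, a transcription factor of glutamatergic neurons, was at 15.1, 13.7 and 14.9 CPM in controls and 22.8, 21 and 20 CPM after ethanol, or 0.55 higher on the log2 scale (SE 0.08, unadjusted p = 0.000158, adjusted p = 0.807, edgeR F test). The 8 choroid plexus markers summed to 514, 1116 and 885 CPM in controls and 11.7, 13.3 and 478 CPM after ethanol, with *Otx2* at 1 count in all. Of its 7 tested genes, *Kl*, *Folr1* and *Kcnj13* had an unadjusted p below 0.05 in edgeR's F test (log2 fold changes -1.98, -1.70 and -1.75, adjusted p = 1.0, 1.0 and 0.966). Of all tested genes, 4.21% passed this threshold, and 2.61% did so with a lower level after ethanol. This list did not follow *Oxt*, since control 2 was highest in it and lowest in *Oxt*. The 6 thalamic markers summed to between 199 and 289 CPM and the 5 striatal markers to between 51.0 and 91.9 CPM, both highest in ethanol 3, and of these only the striatal *Gpr6* had an unadjusted p below 0.05 (log2 fold change 0.34, adjusted p = 1.0, edgeR F test). The part of these tissues in the peptide levels was not tested.

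The receptors for the other peptides spanned much smaller ranges than the peptides *Pmch*, *Hcrt*, *Oxt* and *Avp*. Of 10 further receptors, 7 were tested, 4 with a higher and 3 with a lower mean after ethanol, and 0 had an unadjusted p below 0.05 in edgeR's F test. *Trhr*, the receptor of thyrotropin-releasing hormone, was at 32.1, 45.4 and 41 CPM in controls and 37.2, 38.7 and 28.6 CPM after ethanol. *Mchr1*, through which melanin-concentrating hormone acts, was at 12.7, 17.5 and 12.7 CPM in controls and 14.1, 20 and 11.6 CPM after ethanol, so that it was lowest in ethanol 3, where *Pmch* was highest. The orexin receptor *Hcrtr1* was between 9.98 CPM in ethanol 3 and 13.9 CPM, with control 2 nearly as low (10.1 CPM). The other orexin receptor, *Hcrtr2*, was lowest in ethanol 1 (2.68 CPM against 2.77 CPM in ethanol 3). Of all tested genes, 20.9% were lowest in ethanol 3. The galanin receptor *Galr1* was highest in ethanol 3, at 7.76 CPM against 4.36 to 5.49 CPM elsewhere, while *Galr2* had 0 counts. The 7 tested receptors spanned from 1.4-fold for *Hcrtr1* to 2.86-fold for *Galr3* over the 6 libraries, all above the median of 1.28-fold over all tested genes. *Galr3*, with only 20 to 62 counts, thus spanned more than the peptides *Trh* (2.72-fold) and *Gal* (1.79-fold).

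Of 12 genes for the processing, storage and breakdown of peptides, 11 were tested and 0 had an unadjusted p below 0.05. Carboxypeptidase E (*Cpe*) ranged from 2122 to 2575 CPM, and the granins *Scg2* and *Chgb* from 529 to 680 and from 495 to 629 CPM. The summed level of the list stayed within 1.10-fold over the 6 libraries, a sum of which *Cpe* was the largest component, against 24.0-fold for *Oxt* with *Avp* and 82.9-fold for *Hcrt* with *Pmch*. The prohormone convertases *Pcsk1* and *Pcsk2* spanned 1.66-fold and 1.62-fold. *Trhde*, the ectoenzyme that degrades thyrotropin-releasing hormone, was between 18.4 and 24.9 CPM.

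Among 10 other hypothalamic peptides and amine enzymes, 9 matched the files and 6 were tested. *Kiss1*, which encodes kisspeptin and is made in the hypothalamus and the medial amygdala, had 38, 36 and 30 counts in controls and 11, 17 and 17 after ethanol. These are 0.52 ± 0.0553 and 0.227 ± 0.0489 CPM (SD, n = 3 each), and all 3 ethanol libraries lay below all 3 controls. The log2 fold change was -1.19 (standard error 0.24, unadjusted p = 0.00137, adjusted p = 0.809, edgeR F test, Benjamini-Hochberg correction), which did not pass the threshold of 0.2. *Cartpt*, which encodes the feeding peptide CART, was at 15.1, 14 and 12.9 CPM in controls and 14.1, 24 and 19.4 CPM after ethanol, or 0.45 higher on the log2 scale (unadjusted p = 0.0348, adjusted p = 1.0, edgeR F test). The histamine-synthesizing enzyme *Hdc* (0.343 to 3.01 CPM) was highest in control 3, and *Pomc*, the precursor of melanocortins, lay between 1.12 and 2.32 CPM.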

How the data were processed

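RNA of 2 rats per library was pooled and sequenced as stranded single-end reads of 100 nt, with 3 libraries per group. The authors deposited raw counts per gene. Per the file headers and the submitters' processing notes, reads were aligned to Rnor_6.0 with STAR 2.7.0f and counted over exons by featureCounts v1.6.3 with the reverse-stranded setting (2), without reads that align to several places or overlap several genes. Library totals were 62576504 to 70755739, so 3 counts are 0.0424 to 0.0479 CPM. The exon length deposited beside the counts was used for values per kilobase.

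Symbols came from a RefSeq table (GRCr8) for 29322 of 38445 identifiers, and *Nms* did not match. The analysis ran edgeR 4.0.16 under R 4.3.3: filterByExpr (minimum 10 counts, 15 in total), TMM (factors 0.976 to 1.01), quasi-likelihood F test without legacy mode, Benjamini-Hochberg adjustment over 18141 genes and the study's threshold of 0.2. The study's own RNA-seq test is described in supplementary methods not used here. Log2 CPM carried a prior count of 2. The test was tested on simulated data. Alternatives were edgeR's likelihood ratio test, DESeq2 1.42.0, limma-voom (limma 3.58.1), other scalings, no filter, a replicate block and leaving out each library. P-values measure the spread between these pools. The members and lists were chosen with earlier results of these data known. Genes named from each list were the 3 with the most counts and any with an unadjusted p below 0.05. Further genes were named outside this rule and chosen after their values were seen. Some of these show what a list's summed level rests on, and others, such as *Galr1*, *Pcsk1* and *Trhde*, do not. A result on a withheld item is not reported here.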

Additional observations from a re-analysis of the deposited data

How the results depend on the processing

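None of the 9 tested genes had an adjusted p below 0.2 in any fit. Over all genes, the count at that threshold went from 0 to 77 with edgeR's likelihood ratio test and 75 with DESeq2, and from 0 to 82 with 1 library left out (4 without ethanol 1, 82 without ethanol 3 and 0 for each of the others). The count at an unadjusted p below 0.05 went from 763 to between 590 (without control 3) and 1638 (without ethanol 3) in edgeR's quasi-likelihood test. Among the members it went from 0 to 1 with the likelihood ratio test (*Pmch*), to 1 with the replicate block (*Trh*) and to between 0 and 2 with 1 library left out: *Hcrt* and *Pmch* without ethanol 1, *Pmch* without ethanol 2, and *Pmch* and *Ghrh*, both lower in the ethanol group, without ethanol 3. Over all genes, these fits gave 692 (likelihood ratio test), 1030 (replicate block), 665 (without ethanol 1), 596 (without ethanol 2) and 1638 (without ethanol 3).

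Leaving out 1 library turned the direction of each of the 9 genes at least once, and the cause was not tested. The log2 fold change ran from -2.15 (without ethanol 3) to 0.25 (without control 1) for *Oxt*, from -2.01 (without ethanol 3) to 0.26 (without control 1) for *Avp*, from -0.16 to 0.07 for *Oxtr*, from -0.21 to 0.08 for *Avpr1a*, from -0.67 (without ethanol 3) to 2.23 for *Hcrt*, from -1.73 (without ethanol 3) to 4.06 for *Pmch*, from -0.10 (without ethanol 3) to 0.65 for *Trh*, from -0.11 to 0.29 for *Gal* and from -0.80 (without ethanol 3) to 0.25 for *Ghrh*. No other scaling, filter or test turned a direction, although limma-voom took *Pmch* to 0.88 and *Hcrt* to 0.65. The order of the levels per kilobase moved for 2 genes in controls alone and for 6 in the ethanol group alone. By the mean of the ethanol group *Pmch* led with 94.5 CPM per kilobase. That mean rested on ethanol 3 (277, against 2.84 and 3.32 in ethanol 1 and 2). By the median of the ethanol group *Avp* led (21.4) and *Pmch* was at 3.32.

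The labels give both groups replicate numbers 1 to 3, but these mark different rats. Deviations from the group means correlated by 0.0724, 0.332 and 0.207 for numbers 1, 2 and 3, and control 1 correlated better with ethanol 3 (0.213), so the numbers were not taken as pairs. With the replicate block, 0 genes had an adjusted p below 0.2 and 1030 an unadjusted p below 0.05, and the log2 fold change was 0.93 for *Pmch*, 1.06 for *Hcrt* and 0.27 for *Trh* (unadjusted p = 0.0156, adjusted p = 0.744 from edgeR).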

Other observations

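Few genes singled out a library as *Pmch* did. Among 14760 genes with a mean of at least 1 CPM, 3 were at least 4-fold higher in ethanol 3 than in any other library: *Pmch* (14.2-fold), *Hcrt* (7.13-fold) and *Cxcl13*, which encodes a B-cell chemokine (6.35-fold, at 4.96 CPM against 0.28 to 0.78 CPM). In control 2 there was 1 such gene, an identifier without a symbol (170615) that was 16.3-fold higher there, at 106 CPM against 5.19 to 6.48 CPM, a larger lead than that of *Pmch*, and in control 1, control 3, ethanol 1 and ethanol 2 there were 0. This criterion was chosen after the values had been seen.

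*Ttr*, the thyroxine carrier of the choroid plexus, also had a within-group spread as large as that of the hormones (pooled SD of log2 CPM 2.66). *Tshb*, which encodes the beta subunit of thyrotropin, had a pooled SD of 2.03 and was at 0.789 CPM in control 3 and 0.977 CPM in ethanol 3 and at 0.0282 to 0.295 CPM elsewhere. These genes were picked by their spread, and the values are given as a description.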
